A study of Mus musculus with 4 samples.

Results

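The genes described here are 10 regulators and markers of the trophoblast, the lineage that forms the outer layer of the blastocyst and later the placenta. They are Cdx2, Tead4, Gata3, Tfap2c, Tfap2a, Elf5, Ets2, Hand1, Esx1 and Plac1, chosen by symbol and matched by their Ensembl identifiers, and they are 10 of the 37310 genes in the deposited mRNA-seq table. The libraries were made from mouse embryonic stem cells (mESCs) of the JM8 line, of the C57BL6/N strain. The question was how the transcriptome of mESCs differs when Bmal1, the circadian clock factor encoded by the gene Arntl, is mutated. There were 2 libraries labelled JM8 wild-type and 2 labelled Bmal1-/-, described by the study as biological replicates of each line. The Bmal1-/- line is 1 clone made with CRISPR/Cas9, with a different small insertion or deletion on each allele, so that a difference between the lines other than Bmal1 and the genotype cannot be told apart. Cells of both labels grew without feeders in 2i + LIF medium, which holds the Mek inhibitor PD0325901 (1 µM), the Gsk3 inhibitor CHIR99021 (3 µM) and leukaemia inhibitory factor (LIF), a cytokine of self-renewal.

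In the blastocyst, Tead4, a DNA-binding protein that works with the Hippo pathway co-activators Yap1 and Wwtr1, acts upstream of Cdx2 and Gata3 in the cells that become trophectoderm. Trophoblast stem cells are then maintained by a network that includes Cdx2, Elf5, Ets2 and the AP-2 factor Tfap2c, while Hand1 is known for its role in giant cells and Esx1 in the placental labyrinth. mESCs derive from the inner cell mass and do not normally contribute to the trophoblast, although several of these factors, such as Tead4 and Tfap2c, are also known to be expressed in them.

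The values are read counts per gene divided by a scaling factor of each library (trimmed mean of M values, TMM), and are called normalized values below. Reads on genes ranged from 21504265 to 23329034 per library, and 3 reads, taken as the floor, corresponded to normalized values of 2.82 to 3.19. Arntl mRNA was present in all 4 libraries, with 678 and 733 in wild-type and 556 and 590 in the Bmal1-/- labelled libraries, and it was lower in the latter without overlap (log2 fold change −0.30, standard error 0.07, adjusted p = 0.0011 in limma). The level of this mRNA does not show whether the protein was made, and the groups are called by their labels. Markers of naive pluripotency were abundant in every library, and all 12 had mean normalized values between 1612 and 45135. Defining markers of the trophoblast itself ranged from abundant (Tfap2c, which is also known in mESCs) to 3 reads or fewer in every library (Elf5). The markers Eomes, Krt7, Krt8 and Krt18 are given with their lists below. In bulk RNA, fewer cells of a type and less RNA per cell cannot be told apart.

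The following 250-base sequences lie directly upstream of the annotated start of 3 members (RefSeq, build GRCm38.p6). Cdx2 (chr5:147307250-147307499, minus strand) and Ets2 (chr16:95702157-95702406, plus strand) are shown as members that were lower and higher in the Bmal1-/- labelled libraries, and Esx1 (chrX:137120327-137120576, minus strand) as the one member promoter that holds the E-box CACGTG, the motif bound by Bmal1 with its partner Clock. Capitals mark CACGTG in Esx1 and the AP-2 motif GCCNNNGGC in Cdx2. Ets2 held none of the motifs searched.
Cdx2: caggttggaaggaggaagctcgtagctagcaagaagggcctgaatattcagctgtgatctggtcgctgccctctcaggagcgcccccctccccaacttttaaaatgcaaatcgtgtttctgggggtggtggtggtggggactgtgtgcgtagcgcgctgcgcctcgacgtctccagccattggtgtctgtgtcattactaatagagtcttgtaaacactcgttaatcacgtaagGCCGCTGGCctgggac
Ets2: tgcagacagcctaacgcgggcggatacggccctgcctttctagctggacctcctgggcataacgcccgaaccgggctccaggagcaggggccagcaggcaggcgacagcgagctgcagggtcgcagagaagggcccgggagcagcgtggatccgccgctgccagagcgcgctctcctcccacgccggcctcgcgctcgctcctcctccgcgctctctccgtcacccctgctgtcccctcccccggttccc
Esx1: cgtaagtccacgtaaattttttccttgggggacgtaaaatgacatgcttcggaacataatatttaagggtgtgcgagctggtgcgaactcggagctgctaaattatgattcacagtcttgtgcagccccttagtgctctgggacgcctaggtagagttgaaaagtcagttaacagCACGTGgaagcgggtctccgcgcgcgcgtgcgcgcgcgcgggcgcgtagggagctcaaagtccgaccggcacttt

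RefSeq promoters were matched for 7 of the 10 members, 10 promoters in all, because Elf5, Plac1 and Tfap2a each had 2 starts. Promoters of Tfap2c, Tead4 and Hand1 were not analysed here. Both strands of each sequence were searched for CACGTG (the E-box), GCCNNNGGC (the AP-2 motif), GGAATG (the Tead motif) and AGATAA (bound by Gata factors), and no 2 motifs overlapped in the member promoters. CACGTG was in 1 of the 10 (Esx1, first base 75 bases upstream of the start) and in 6.02% of 32851 mouse promoters of the same length. GCCNNNGGC was in 2 of the 10 (once in Cdx2, first base 16 bases upstream, and 3 times in Gata3) and in 13.7% of all promoters. GGAATG was in 1 promoter of Elf5 against 12.6% of all, and AGATAA in 1 promoter of Plac1 against 9.99%. Promoters of Ets2, Esx1 and Gata3 were rich in CpG, with 25, 24 and 19 CpG dinucleotides against a median of 6 over all promoters. That of Cdx2 held 13, those of Tfap2a 10 and 10, those of Elf5 2 and 8, and those of Plac1 2 and 4. A match is a stretch of letters and does not show that a factor binds there.

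**Figure D1:**
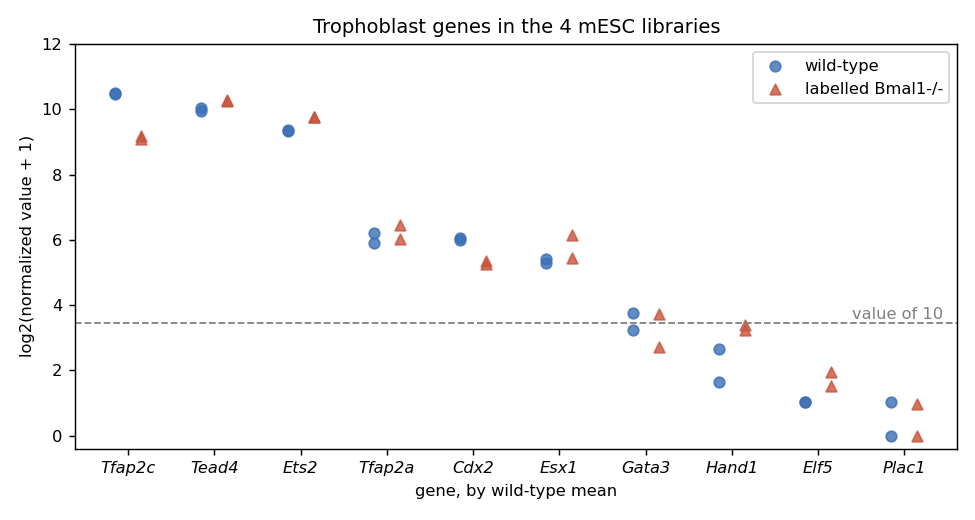
Normalized value of each member in each library, as log2(value + 1), with genes ordered by their wild-type mean, wild-type libraries as circles and Bmal1-/- labelled libraries as triangles. The dashed line marks a value of 10, the mean needed for a gene to be tested, and Gata3, Hand1, Elf5 and Plac1 fall under it on average.

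The members fell into 3 ranges of abundance. Tfap2c, Tead4 and Ets2 had normalized values from 541 to 1444 over the 4 libraries. Cdx2, Tfap2a and Esx1 had values from 37.2 to 86.4. Gata3 and Hand1 had between 2 and 13 reads per library, and Elf5 and Plac1 had at most 3. Testing required an average value of 10 or more over all libraries, which 6 of the 10 members and 14510 genes in all passed. The labels were compared by limma, fitted to log2(value + 1), with Benjamini-Hochberg adjustment of p over the 14510 genes, and all log2 fold changes are those of the Bmal1-/- labelled libraries over wild-type on that scale.

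Of the 6 members tested, 2 were higher (Tead4 and Ets2) and 2 lower (Tfap2c and Cdx2) in the Bmal1-/- labelled libraries with an adjusted p under 0.05. These counts stand beside a broad difference between the lines: 52.6% of all genes tested passed the same threshold, with 24.0% of all genes tested higher and 28.6% lower. Tfap2c was the 1 member past 2-fold, where 1.45% of all genes tested were lower and 7.21% differed in either direction by this rule. For 5 of the 6 members the libraries of the labels did not overlap, against 76.0% of all genes tested. The median log2 fold change of the 6 members was 0.22, and that of all genes tested was −0.030. The median of the members was 0.041 without the first Bmal1-/- labelled library, 0.12 without the second wild-type library and 0.078 with quantile normalization. With 2 libraries of 1 line for each label, p-values rest only on the spread between those libraries, which may be technical. In the limma fit that spread was largely estimated from other genes of like level (18.1 prior df), and less from the gene's own values.

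**Figure D2:**
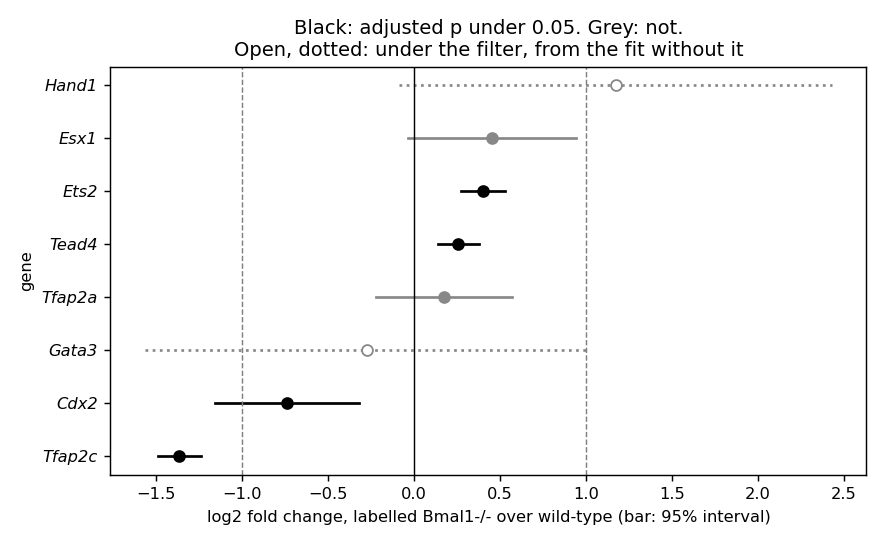
Log2 fold change of 8 members in the Bmal1-/- labelled libraries over wild-type, with 95% intervals as bars. Black points had a limma adjusted p under 0.05, grey points did not, and open points with dotted bars are genes under the filter, from a fit without it. Tfap2c at −1.36 lies beyond the dashed line for 2-fold, and the intervals of Gata3, Tfap2a, Esx1 and Hand1 include 0. Elf5 and Plac1 had at most 3 reads per library and are not drawn.

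Among the trophectoderm regulators, Cdx2 was lower and Tead4 slightly higher, while Gata3 was too low to test. Cdx2, a homeodomain protein required for the trophectoderm (ENSMUSG00000029646, mm9 chr5:148112381-148118846), stood at 63.2 and 65.9 in wild-type and 39.5 and 37.2 in the Bmal1-/- labelled libraries. The groups did not overlap, and each value rested on 39 to 62 reads. Cdx2 in the Bmal1-/- labelled libraries was at 59.4% of its wild-type mean, with a log2 fold change of −0.74 (standard error 0.20, 95% interval −1.16 to −0.32, limma adjusted p = 0.0043). With DESeq2 on the whole reads the fold change was −0.72 and the call was lost (adjusted p = 0.096). Over all alternatives the adjusted p of Cdx2 ranged from 0.0012 to 0.096.

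Tead4 (ENSMUSG00000030353, chr6:128174306-128250841) had 1062 and 990 in wild-type and 1212 and 1243 in the Bmal1-/- labelled libraries. All values of the latter lay above those of wild-type, and the difference was small, with a log2 fold change of 0.26 (standard error 0.06, 95% interval 0.14 to 0.38, limma adjusted p = 6.83e-04). In limma without the intensity trend the adjusted p of Tead4 was 0.049, just under the threshold. Gata3, a zinc-finger factor that acts beside Cdx2 (ENSMUSG00000015619, chr2:9778705-9811661), had 12.6 and 8.50 in wild-type and 5.64 and 12.4 in the Bmal1-/- labelled libraries. Its groups overlapped, and its mean of 9.79 lay just under the filter. From 20 reads in wild-type and 19 in the others, the ratio of Gata3 was 0.850 with a 95% interval of 0.429 to 1.68 for counting error, so that a change of up to about that size was not detectable at this depth. Reads of Gata3 could be mixed with those of 3 genes that overlap it in the annotation, each of which had at most 1 read per library.

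Of the regulators of trophoblast stem cells, Tfap2c was much lower, Ets2 higher, and Tfap2a did not pass the test. Tfap2c (ENSMUSG00000028640, listed under its older symbol Tcfap2c, chr2:172375093-172384122) encodes AP-2gamma. It had 1429 and 1444 in wild-type and 576 and 541 in the Bmal1-/- labelled libraries, a mean of 1436 ± 10.7 against 558 ± 24.9 (SD, n = 2 each). Both Bmal1-/- labelled libraries lay far below both wild-type libraries. The log2 fold change of Tfap2c was −1.36 (standard error 0.06, 95% interval −1.49 to −1.24, limma adjusted p = 1.73e-13), a 2.57-fold lower level, and it ranked 92 from the lowest of the 14510 genes tested. It stayed between −1.41 and −1.30 and past the threshold under every alternative tried. The size of its adjusted p depended on the fit, and was 0.0047 in limma without the intensity trend.

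Ets2, an ETS-domain factor that is a target of Erk signalling in trophoblast stem cells (ENSMUSG00000022895, chr16:95923682-95942658), had 659 and 649 in wild-type and 868 and 862 in the Bmal1-/- labelled libraries. The groups were well apart compared with the replicates. Its log2 fold change was 0.40 (standard error 0.06, 95% interval 0.27 to 0.53, limma adjusted p = 1.63e-05), and it kept its call under every alternative. The adjusted p of Ets2 was 0.016 in limma without the intensity trend. Tfap2a, which encodes AP-2alpha (ENSMUSG00000021359, listed as Tcfap2a, chr13:40811044-40829192), had 73.7 and 59.5 in wild-type and 86.4 and 64.8 in the others. Its groups overlapped, with a log2 fold change of 0.17 (95% interval −0.22 to 0.57, limma adjusted p = 0.46), so that an equal level and a rise of up to 0.57 are both within the interval. Its sign turned with quantile normalization (−0.045) and without the first Bmal1-/- labelled library (−0.030).

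Elf5, an ETS-domain factor of trophoblast stem cells whose promoter is known to be methylated in mESCs (ENSMUSG00000027186, chr2:103251845-103291146), had 1 read in each wild-type library and 2 and 3 reads in the Bmal1-/- labelled libraries. All 4 values were at or under the floor, so no fold change is given. Over both libraries, 2 reads in wild-type have an exact Poisson 95% interval of 0.242 to 7.22 reads, and 5 reads in the others one of 1.62 to 11.7. These intervals, like the ratios from few reads, cover counting error only.

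**Figure D3:**
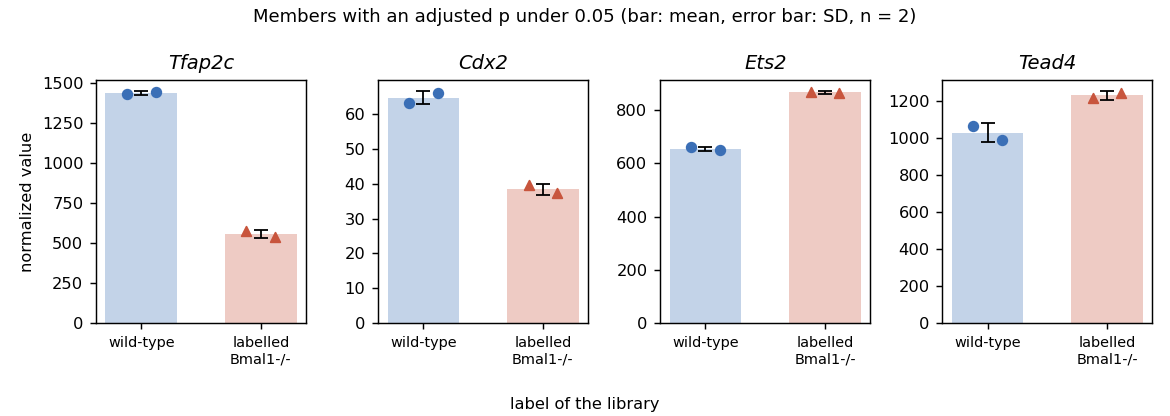
Normalized values, on linear axes from 0, of the 4 members with an adjusted p under 0.05, with bars for the mean, error bars for the SD (n = 2) and points for the libraries. The values of Tfap2c and Cdx2 are lower in both Bmal1-/- labelled libraries, and those of Ets2 and Tead4 are higher, with no overlap in any panel.

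Of the factors of differentiating trophoblast, Hand1 was under the filter and Esx1 did not pass the test. Hand1, a basic helix-loop-helix factor (ENSMUSG00000037335, chr11:57642207-57646320), is shown with the primers that the study used for RT-qPCR of its mRNA. The primers mark the transcript that was also assayed outside these libraries. Both primers matched coding exons of Hand1 and span 1621 bases of mm9. The forward primer lies at chr11:57644746-57644764 on the minus strand, the strand of the gene, and the reverse primer at chr11:57643144-57643163 on the plus strand.
Hand1 forward primer: caagcggaaaagggagttg
Hand1 reverse primer: gtgcgccctttaatcctctt

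Hand1 had 2 and 5 reads in wild-type and 9 and 10 in the Bmal1-/- labelled libraries. The groups did not overlap, but the mean was under the filter. In a fit without the filter its log2 fold change was 1.17 (95% interval −0.086 to 2.43, limma adjusted p = 0.15), and the ratio of summed reads, scaled by library, was 2.43 with a counting interval of 0.978 to 6.84. Esx1, an X-linked homeobox gene (ENSMUSG00000023443, chrX:133649936-133656622), had 37.9 and 41.4 in wild-type and 69.5 and 42.9 in the Bmal1-/- labelled libraries. Only the first of the latter stood well above wild-type, and the groups were apart by the small gap between 41.4 and 42.9. The log2 fold change of Esx1 was 0.45 (95% interval −0.035 to 0.94, limma adjusted p = 0.11), and 1 library decided it: it was 0.80 (adjusted p = 0.025) without the second Bmal1-/- labelled library and 0.11 (adjusted p = 0.79) without the first.

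Plac1, an X-linked gene expressed in the placenta (ENSMUSG00000061082, chrX:50423172-50593288), had 1 and 0 reads in wild-type and 0 and 1 in the Bmal1-/- labelled libraries. It was at or under the floor in all 4 libraries, and no fold change is given. With 1 read over both libraries of each label, the exact Poisson 95% interval was 0.0253 to 5.57 reads in each.

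Levels of different genes are compared per kilobase of annotated exon. In wild-type the order of normalized values per kilobase was Tfap2c (390), Tead4 (285), Ets2 (139), Cdx2 (28.5), Tfap2a (20.5), Esx1 (20.0), Gata3 (2.66), Hand1 (1.86), Plac1 (0.378) and Elf5 (0.180). Tfap2a and Esx1 did not differ beyond the range of their libraries, nor did Gata3 and Hand1, nor Plac1 and Elf5. In the Bmal1-/- labelled libraries the order was Tead4 (341), Ets2 (184), Tfap2c (152), Esx1 (28.3), Tfap2a (23.3), Cdx2 (16.9), Hand1 (4.50), Gata3 (2.27), Elf5 (0.403) and Plac1 (0.342). Here Esx1 and Tfap2a overlapped, as did Elf5 and Plac1. Tfap2c thus stood first among the members in wild-type and behind Tead4 and Ets2 in the other label, and Cdx2 stood ahead of Tfap2a and Esx1 in wild-type and behind both in the other label. Against all genes tested, the level of Tfap2c per kilobase was above that of 74.3% in wild-type and 53.6% in the Bmal1-/- labelled libraries, and that of Cdx2 above 25.3% and 16.3%.

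Most members belong to small families, and the share of each family that a member made up, per kilobase, was also compared. Tfap2c made up 94.0% and 94.8% of the 5 Tfap2 genes in wild-type and 84.4% and 84.5% in the Bmal1-/- labelled libraries. The sum of the family, per kilobase, was at 0.434 of wild-type and lower under each of the 4 scalings compared. Tfap2a made up 5.51% and 4.43% in wild-type and 14.4% and 11.5% in the others. Its own level per kilobase, 22.7 and 18.3 against 26.6 and 20.0, overlapped between the labels, so the larger share goes with the lower family sum. Tfap2b and Tfap2d were at 0 reads in all libraries. Tead4 made up 22.3% and 21.3% of the 4 Tead genes in wild-type and 26.6% and 27.9% in the others. The other Tead genes shifted among themselves: Tead2, the most abundant, went from 64.9% and 66.7% to 49.6% and 47.6%, and Tead1 from 10.9% and 9.60% to 21.6% and 22.2%. The sum of the Tead genes was at 0.960 of wild-type, lower without overlap with the TMM and median-ratio scalings and overlapping with equal library totals (1.00) and quantile normalization (0.984).

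Cdx2 was a minor member of its family in these cells. Cdx1 made up 97.5% to 98.7% of the summed level per kilobase of the 3 Cdx genes in every library, and Cdx2 made up 2.20% and 2.42% in wild-type and 1.21% and 1.11% in the Bmal1-/- labelled libraries. Cdx1 was higher in the latter (log2 fold change 0.25, limma adjusted p = 1.71e-04), so that the 2 genes went in opposite directions. Gata3 made up at most 6.53% of the 6 Gata genes in any library. Within that family Gata2 went from 53.3% and 59.5% to 21.9% and 26.2%, and Gata4, a gene of the primitive endoderm, from 31.4% and 31.4% to 66.7% and 57.2%. The sum of the Gata genes was at 0.746 of wild-type, and Gata2 fell while Gata4 itself had 69.5 and 85.0 in wild-type and 120 and 107 in the Bmal1-/- labelled libraries (log2 fold change 0.55, limma adjusted p = 0.0061). The call of Gata4 was lost without the first Bmal1-/- labelled library (adjusted p = 0.087), with DESeq2 (0.067), with quantile normalization (0.054) and without the filter (0.068). Elf5 made up 0.00904% to 0.0249% of the 5 Elf genes, of which Elf3 made up 71.8% to 72.9%. Shares are descriptions and were not tested.

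**Figure D4:**
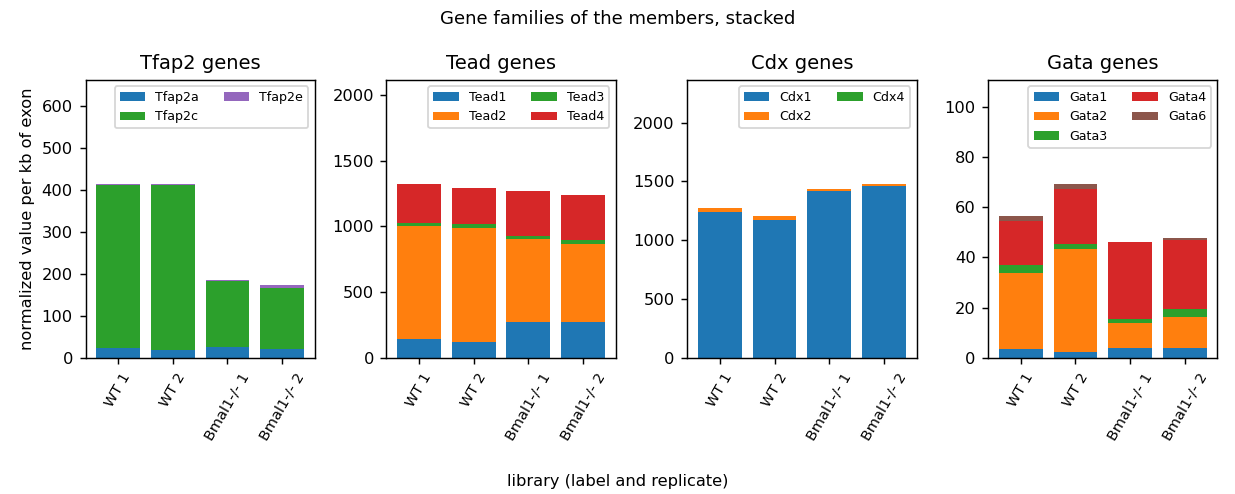
Normalized values per kilobase of exon, stacked by gene, for the Tfap2, Tead, Cdx and Gata families in each library (WT, wild-type). The Tfap2 sum is 413 and 414 in wild-type and 185 and 174 in the other label, the Tead sum stays between 1241 and 1322 with more Tead1 and less Tead2, and Cdx1 fills nearly the whole Cdx bar.

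Other genes of the trophoblast network were read from lists written for this purpose. Of 25 further regulators of the trophoblast lineage, 22 were tested, 7 were higher and 9 lower in the Bmal1-/- labelled libraries, with a median log2 fold change of −0.13. The count of 7 higher was 4 without the first Bmal1-/- labelled library, with DESeq2 or without the intensity trend, and 3 without the filter. Genes of this list are not limited to the trophoblast: Esrrb, also in the naive pluripotency list, had a mean normalized value of 15527. Past 2-fold were Gata2, Lin28a and Dlx3. Gata2, a factor known in trophoblast giant cells, had 101 and 138 in wild-type and 33.8 and 42.0 in the others (log2 fold change −1.62, standard error 0.19, limma adjusted p = 7.35e-07). Lin28a, an RNA-binding protein that blocks let-7 processing and is also a pluripotency marker, had 1693 and 1560 against 563 and 535 (−1.57, standard error 0.06, limma adjusted p = 2.74e-14). In both genes the 2 labels were far apart. Dlx3, a homeobox gene needed for the placenta, rose from 6 reads in each wild-type library to 21 and 31 reads (log2 fold change 1.78, standard error 0.39, limma adjusted p = 6.39e-04). The trophoblast marker Eomes had 271 and 262 in wild-type and 163 and 136 in the others. Its log2 fold change was −0.83 (standard error 0.11, limma adjusted p = 4.07e-06), and its call was kept under every alternative.

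Of 39 products of placenta and trophectoderm (keratins, placental hormones, syncytins, transporters and junction proteins), 13 had at most 3 reads in every library, among them the placental lactogens Prl3d1 and Prl3b1, Tpbpa and Synb. Of the 21 tested, 5 were higher and 8 lower, with a median of −0.14. The keratins Krt7, Krt8 and Krt18 did not pass the test (log2 fold change −0.44, 0.15 and −0.044, limma adjusted p = 0.40, 0.22 and 0.87). The largest changes past 2-fold were in Rhox9, Rtl1, Rhox6 and Syna. Rhox9, an X-linked homeobox gene, had 69.5 and 64.8 in wild-type and 16.9 and 11.4 in the others (log2 fold change −2.19, standard error 0.26, limma adjusted p = 7.93e-07), and its neighbour in the same cluster Rhox6 had 74.8 and 71.2 against 24.4 and 21.0 (−1.65, standard error 0.22, limma adjusted p = 3.44e-06). Rhox genes are close copies of each other, so reads could be split between them. Rtl1, an imprinted gene with an antisense partner, had 17 and 19 reads against 5 and 6 (−1.69, standard error 0.42, limma adjusted p = 0.0019), and whether counting used strand is not given in the sources used here. Syna, a syncytin of the labyrinth, had 6 and 7 reads against 20 and 19 (1.31, standard error 0.40, limma adjusted p = 0.0087), a call that was lost with DESeq2 (adjusted p = 0.11) and without either Bmal1-/- labelled library (adjusted p = 0.068 and 0.060).

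Tead4, like the other Tead genes, encodes a DNA-binding factor at the end of the Hippo pathway. Of 21 genes of that pathway, 20 were tested, 10 were higher and 3 lower, with a median of 0.15. Tead1 was the one past 2-fold, with 1618 and 1393 in wild-type and 3079 and 3089 in the Bmal1-/- labelled libraries (log2 fold change 1.04, standard error 0.06, limma adjusted p = 6.04e-12). The count of 10 higher was 6 when limma was run without its intensity trend. Among 25 paralogs of the members, 14 were tested, with 4 higher, 3 lower and a median of 0.012, and Gata2 and Tead1 were again the ones past 2-fold. Of these paralogs, 7 are also in another list. So are 3 of the further trophoblast regulators, 3 of the Hippo genes, 1 naive pluripotency gene (Esrrb) and 2 primitive endoderm genes. The counts of the lists are thus not separate. The shares of higher and lower genes in each list can be set beside the 24.0% and 28.6% over all genes tested, and no test of a list as a whole was made.

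**Figure D5:**
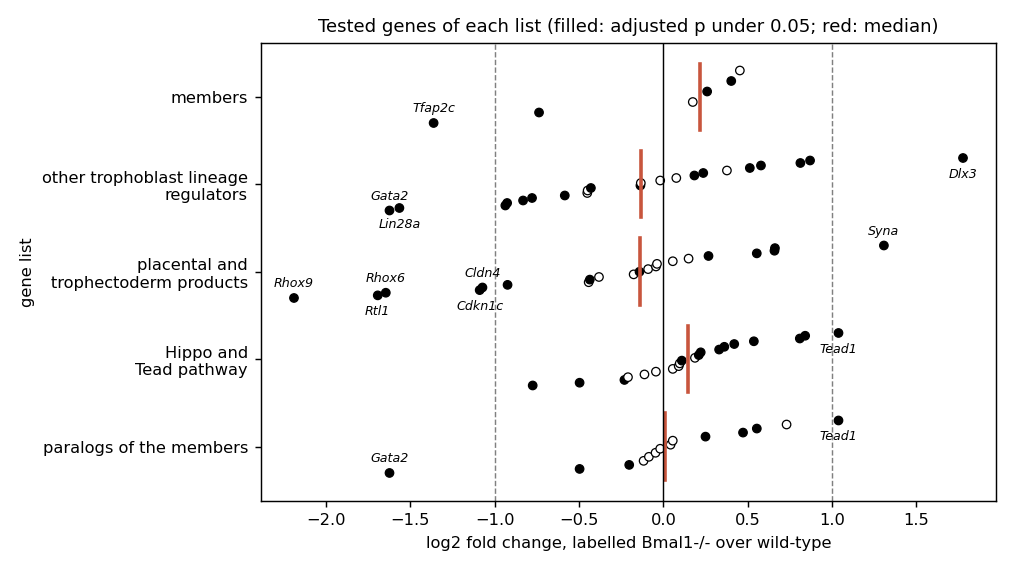
Log2 fold change of each tested gene of the members and of 4 related lists, with filled points for a limma adjusted p under 0.05, a red line at each median and dashed lines at 2-fold. Genes past 2-fold are named, and the medians lie between −0.14 and 0.22.

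Markers of other cell types were read beside these genes. Of all genes tested, 24.0% were higher, 28.6% lower and 7.21% past 2-fold in either direction, and these shares stand beside the counts below. Of the 12 naive pluripotency genes, 6 were higher and 5 lower, none past 2-fold, with the lowest adjusted p in Tfcp2l1 (log2 fold change 0.40, limma adjusted p = 2.37e-07) and Tbx3 (0.36, limma adjusted p = 9.45e-07). The count of 5 lower was 3 without the second wild-type library and 3 without either Bmal1-/- labelled library, and it was 1 with equal library totals or quantile normalization and 0 without the intensity trend. Of the 12 primitive endoderm genes, 9 were tested, 6 were higher and 1 lower, with a median of 0.55. Past 2-fold were 4 of the higher genes and the 1 lower. The summed level of the 12 genes was 13341 and 13453 in wild-type against 14648 and 14335. Most of that sum came from the most abundant gene of the list, with a mean of 11729 over all libraries. The basement membrane genes Col4a2 (log2 fold change 1.56), Col4a1 (1.44) and Lamb1 (1.42) were among the 6 higher, each with a limma adjusted p under 0.05. The defining transcription factors were split. Sox7 was the 1 lower and had the largest change (log2 fold change −2.41, limma adjusted p = 6.04e-06). Sox17 was higher (log2 fold change 1.27, limma adjusted p = 0.0020), as was Gata4 with the lost calls given above. Gata6 and Foxa2 were under the filter, like the marker Dab2. The marker Pdgfra did not pass the test (log2 fold change −0.13, limma adjusted p = 0.73). Of the 9 fibroblast genes, 6 had at most 3 reads in every library, among them Col1a2, Col3a1, Postn, Lum and Dcn. Of the 3 tested, Vim was lower (−1.67, limma adjusted p = 1.99e-16) and made up most of the summed level, which was 3696 and 3533 in wild-type against 1227 and 1203. The sum thus follows Vim, which was not among the fibroblast markers set beforehand. Col1a1 did not pass the test (0.39, limma adjusted p = 0.20). Thy1 was higher (0.59, limma adjusted p = 0.026), a call that was lost under 8 of 15 alternatives: without the first wild-type library and without either Bmal1-/- labelled library (adjusted p = 0.13, 0.057 and 0.19), with DESeq2 (0.18), with quantile normalization (0.18), without the filter (0.096), with a mean of at least 1 (0.063) and without the intensity trend (0.055). The part of these marker differences in the values of the trophoblast genes was not tested.

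The genes next to the members that passed the test did not share one direction with them. Beside Tfap2c, the nearest tested genes were Gm14303, at a distance of 39.9 kb (log2 fold change −0.10, limma adjusted p = 0.40), and Bmp7, at 309 kb (0.39, limma adjusted p = 0.0041). In the 500 kb on either side of Tfap2c, 9 genes were tested, 2 were higher and 3 lower, and their median was −0.10. Beside Cdx2 were Polr1d (−0.28, limma adjusted p = 8.88e-05) and Gm6054 (0.73, limma adjusted p = 0.11). Beside Tead4 were Tspan9 (−0.28, limma adjusted p = 0.054) and Rpl18-ps2, a pseudogene of a ribosomal protein gene (0.059, limma adjusted p = 0.87). Beside Ets2 were Kcnj6 (−0.44, limma adjusted p = 0.36) and Psmg1, which was lower where Ets2 was higher (−0.30, limma adjusted p = 2.92e-05).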

How the data were processed

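Libraries of the 4 mESC samples were made with the TruSeq Stranded mRNA kit and sequenced as paired 75-bp reads. According to the submitters' processing notes, bcl2fastq 2.18.0.12, cutadapt 1.9.1 and STAR 2.5.2b were used, and alignment was to mm9. The counting tool and its strand setting are not given in the sources used here. The values that the authors deposited are a normalized signal: each gene's reads over the TMM factor of the library, computed in NOISeq. Each value was a whole multiple of that of 1 read in its library, so that whole reads were recovered for 100% of values (tolerance 0.01 of a read). Depth was read from these. No other column of values was left unused.

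The 2 labels were compared on log2(value + 1) without covariates in limma 3.58.1 under R 4.3.3, using eBayes with its trend option (18.1 prior df), in all genes averaging 10 or more, and p was adjusted by Benjamini-Hochberg over all genes tested. The log2 scale with 1 added understates changes of low genes. Members under the filter are given by their reads and by the fit without it. Alternatives were other filters, pseudocounts and scalings, limma with no trend, a replicate block, leaving out 1 library at a time, and edgeR 4.0.16 or DESeq2 1.42.0 on the whole reads, and both without a filter were chosen after seeing the data. The code was tested on simulated data.

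The members and lists were chosen with earlier results of these data known, and the lists were written by hand from general knowledge; 10 genes, 2 of them members, were matched through an older symbol or identifier. Named are all members, at most 4 genes per list past 2-fold with the largest change (or the 2 with the lowest adjusted p), Arntl, and the nearest tested gene on either side of a member with an adjusted p under 0.05. Cdx1, Tead2, Elf3, Gata4, Sox17, Pdgfra, Thy1 and the genes at or near 0 reads were named after their values were seen. So were Eomes, Krt7, Krt8, Krt18, Esrrb and Col1a1. Gene positions and exon lengths are those of GENCODE on mm9, promoters those of RefSeq. Python 3.11.15, pandas 2.3.3 and matplotlib 3.10.9 were used for tables and figures.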

Additional observations from a re-analysis of the deposited data

How the results depend on the processing

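Tfap2c, Tead4 and Ets2 kept their direction and an adjusted p under 0.05 under each of 16 alternatives, and Cdx2 under 14 of the 15 in which it was tested. The number of members lower was 1 instead of 2 with DESeq2, where Cdx2 was at −0.72, and 1 with a mean of at least 100, since fewer members were then tested. The number higher was 2 to 3 with each library left out. The median log2 fold change of the members tested was 0.28 with equal library totals, 0.078 with quantile normalization, and 0.041 to 0.32 with each library left out. Tfap2a turned to −0.045 with quantile normalization and ranged from −0.030 to 0.38 with each library left out, and Esx1 ranged from 0.11 to 0.80. The cause of these shifts was not tested. Under the filter, Hand1 was at 1.17 to 1.29 (adjusted p 0.10 to 0.42 over limma, edgeR and DESeq2) and Gata3 at −0.27 to −0.22. Of 224 counts over the 7 lists and alternatives, 199 stayed within 1.5 times the main count. On the recovered reads of the same 14510 genes, edgeR called 7682 and DESeq2 5226 at an adjusted p under 0.05, against 7639 with limma, and 5060 with limma without the trend. Past 2-fold, 1046 genes were called, and 318 with a mean of at least 100, where fewer genes were tested. The median of all genes stayed between −0.063 and 0.030, and the depth limits what can be said of Gata3, Hand1, Elf5 and Plac1. The replicate numbers come from titles that give Exp 1 and Exp 2 under both labels, which may mean shared experiments. The deviations of the 2 pairs from their label means had a correlation of −0.020, and the main fit did not pair the libraries. With the replicate number as a block, 7949 genes had an adjusted p under 0.05 against 7639 without it, and the call of each member tested was as without it, with 2 higher, 2 lower and a median of 0.22.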
